A study of Arabidopsis thaliana with 36 samples.

Results

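Xyloglucan endotransglucosylase/hydrolase (XTH) genes were followed in leaf 6 of Arabidopsis thaliana. The genes considered were the 10 XTH identifiers XTH4, XTH6, XTH7, XTH8, XTH9, XTH15, XTH17, TCH4 (also called XTH22), XTH23 and XTH24. They were listed by name, with earlier results of these data known. Of these, 9 had a row among the 19437 genes of the expression table, and XTH23 (AT4G25810) was not analysed here. RNA-seq libraries came from 2 isolates of the homozygous atx1 atx3 atx4 triple mutant, TM1 and TM2 (T-DNA alleles SALK_149002, GABI_128H01 and SALK_060156), and from wild type (WT) Columbia-0. ATX1, ATX3 and ATX4 encode methyltransferases of lysine 4 of histone H3. All plants were untreated and grown together under the same long days and low light. Harvests were made at T0, when the mutants were at their peak of bolting, and 2, 4 and 6 days later (T2, T4 and T6). The plants were then 25, 27, 29 and 31 days old. Leaves came from bolted TM plants and from WT plants of the same age that were still vegetative (1 WT plant had bolted by T6). A group was 1 genotype at 1 time, and each of the 12 was 1 pool of 10 ground leaves divided into libraries A, B and C. The spread between such libraries is therefore technical, and p-values over libraries do not measure differences between plants. The mutation and the bolted state came together in the TM plants, so that their parts cannot be told apart.

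Sequencing depth was 4407618 to 11714474 reads per library, as recovered from the FPKM values (fragments per kilobase of transcript, scaled to library size). Transcripts of the mutated genes were still counted in TM libraries: ATX1 had 1.61 to 7.34 FPKM in the 24 TM libraries against 3.25 to 8.24 FPKM in the 12 WT libraries, ATX3 3.95 to 7.63 FPKM against 2.41 to 6.3 FPKM, and ATX4 1.54 to 4.26 FPKM against 3.79 to 5.95 FPKM. Reads from the 3′ end of a gene with an insertion do not check the allele. The summed FPKM of 5 mesophyll markers was 3863 to 13834 in TM libraries and 5262 to 14412 in WT libraries. At T0 it was 11609 to 13834 in TM and 13684 to 14412 in WT libraries. By T2 it had fallen to 5478 to 6184 in TM and 6119 to 6978 in WT libraries. The T0 harvest thus stood above the later ones in this sum in every genotype. None of 5 flower markers had a row in the table.

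XTH enzymes cut xyloglucan, the hemicellulose that binds cellulose microfibrils in the primary wall of dicots, and join the cut end to another xyloglucan chain or to water. They are secreted, and the family is known for its role when walls are loosened, strengthened or remade as cells expand. Members differ in when and where they are transcribed. TCH4 was found as a gene induced by touch, and it is also known to respond to brassinosteroid, auxin, darkness and temperature shocks.

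The catalytic site is shown for the 10 genes because it is the stretch by which members of the family are recognised. It is 27 bases of coding sequence, with the codons of both conserved acidic glutamates in capitals. Sequences were read from the RefSeq TAIR10.1 genome on the coding strand, and each lies within 1 exon. The site of XTH9 was found only when asparagine was allowed in its first place.
XTH4 (AT2G06850), chr2:2764493-2764519, plus strand: gacGAGatagactttGAGttccttgga
XTH6 (AT5G65730), chr5:26299616-26299642, plus strand: gacGAGctagattttGAGttcttggga
XTH7 (AT4G37800), chr4:17776854-17776880, minus strand: gacGAGcttgattttGAGttcttagga
XTH8 (AT1G11545), chr1:3879651-3879677, minus strand: gacGAGatagatttcGAAtttctaggg
XTH9 (AT4G03210), chr4:1416538-1416564, plus strand: aacGAAttcgattttGAGttcttaggg
XTH15 (AT4G14130), chr4:8137782-8137808, minus strand: gacGAGatagactttGAGtttctaggt
XTH17 (AT1G65310), chr1:24257682-24257708, plus strand: gatGAGatcgatttcGAGttcttggga
TCH4 (AT5G57560), chr5:23307839-23307865, minus strand: gacGAGatagatttcGAGtttttaggg
XTH23 (AT4G25810), chr4:13129072-13129098, plus strand: gacGAGattgactttGAGttcttggga
XTH24 (AT4G30270), chr4:14820042-14820068, minus strand: gatGAGattgattttGAGttcttgggt

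The encoded proteins were 269 to 305 residues long and shared 44% to 84% of aligned residues in the 45 pairs. TCH4 and XTH23 were the pair with 84%, TCH4 and XTH24 shared 77.9%, and XTH6 and XTH7 shared 75.1%. Exact runs shared between spliced transcripts of the 33 XTH genes were short: the longest was 30 bases for TCH4 (with XTH21), 23 bases for XTH4 (with XTH15), 26 bases for XTH6 and XTH7 (with each other) and 51 bases for XTH17 (with XTH19). Values of XTH17 are the least certain of the group, with 3 or fewer reads in 29 of 36 libraries. The part of the shared run in them was not tested. The annotated span of XTH15 overlaps that of 1 other gene.

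The 9 genes spanned a wide range of levels. Length differed little between them, at 1049 to 1214 bases in the authors' normalization. XTH4 was the most abundant, with a mean of 51.8 FPKM over the 36 libraries, above 90% of all genes in the table. XTH24 (38.3 FPKM), XTH7 (19.8 FPKM), TCH4 (18.6 FPKM) and XTH6 (11.5 FPKM) followed. XTH9 averaged 3.08 FPKM and rested on 3 to 66 reads per library. XTH8, XTH15 and XTH17 averaged 0.741, 0.427 and 0.332 FPKM, and 15, 26 and 29 of the 36 libraries held 3 or fewer of their reads, so that for these 3 genes single values carry little information.

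**Figure D1:**
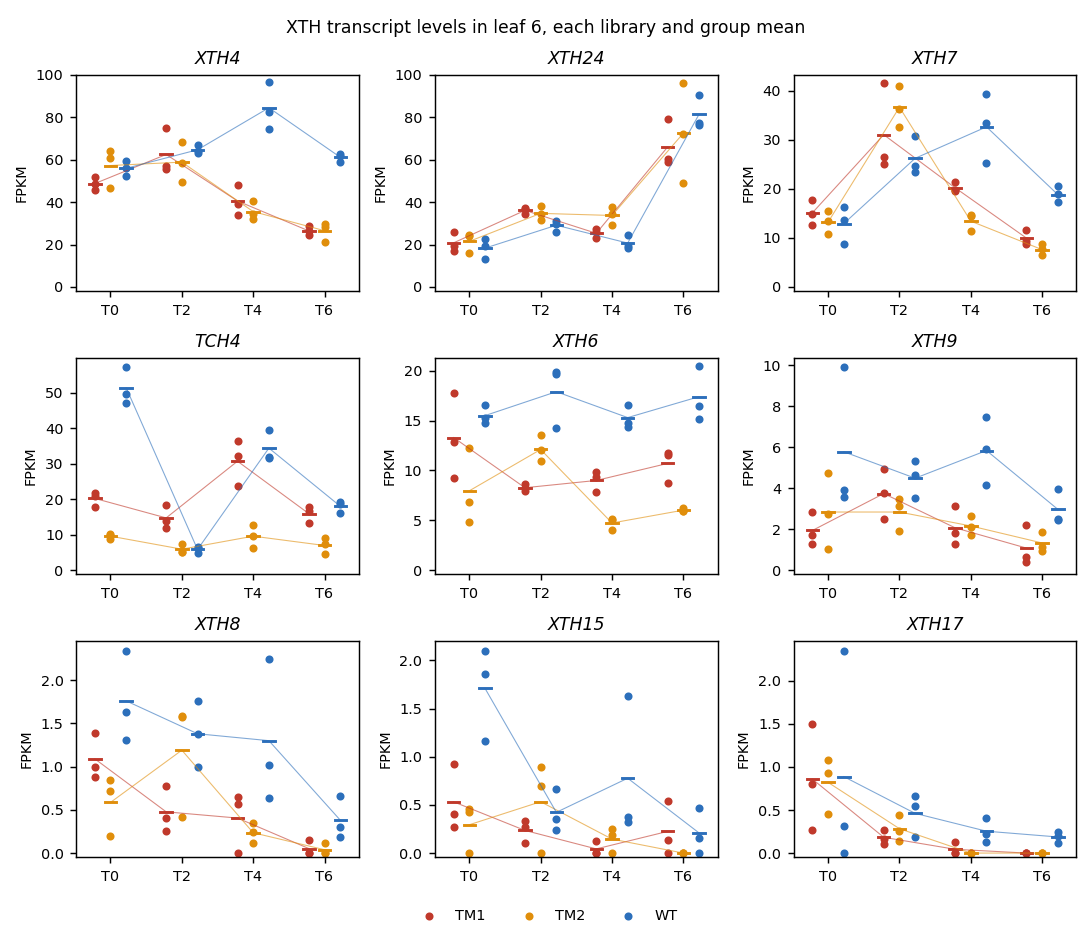
FPKM of the 9 XTH genes (vertical axes, from 0) at T0, T2, T4 and T6 (horizontal axes) in TM1, TM2 and WT. Points are libraries and short bars group means; at T4 and T6 every TM library of XTH4, XTH6, XTH7 and XTH9 lies below every WT library, and XTH24 is highest at T6 in TM1, TM2 and WT.

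The comparison of TM with WT at each time asked which XTH genes differed between bolted mutants and vegetative plants of the same age. A gene was past the threshold when the adjusted p was under 0.05 (limma on log2(FPKM + 1), adjusted over the 19437 genes) and both isolates differed from WT by 2-fold or more in the same direction. Past it were TCH4 at T0, none at T2, XTH4 and XTH9 at T4, and XTH4 at T6, and all of these were lower in the TMs. That is 1, 0, 2 and 1 of 9 genes, beside 0.520%, 0.448%, 0.741% and 0.597% of all genes lower at the same times. Without the fold limit, 2 of 9 XTH genes were lower in both isolates at T0 (3.03% of all genes), 0 at T2 (6.44%), 4 at T4 (4.16%) and 3 at T6 (2.40%), and none was higher at any time (6.84%, 11.3%, 4.10% and 2.68% of all genes). At T2 XTH6 alone had an unadjusted p under 0.05 in both isolates, and limma voom on recovered reads also called 0 of 9.

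The estimates averaged over both isolates were below 0 for 6, 6, 8 and 9 of 9 XTH genes at T0, T2, T4 and T6, beside 45.2%, 40.4%, 49% and 39.6% of all genes. In TM1 alone XTH15 was at 0.01 at T6. The median over the 9 genes was -0.60, -0.10, -0.93 and -0.74 on the log2 scale at T0, T2, T4 and T6, beside 0.04, 0.09, 0.00 and 0.07 over all genes. The 9 genes were listed by name with earlier results of these data known, and the 4 times share no libraries. In bulk leaf RNA, fewer cells that express a gene and less RNA per cell cannot be told apart.

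**Figure D2:**
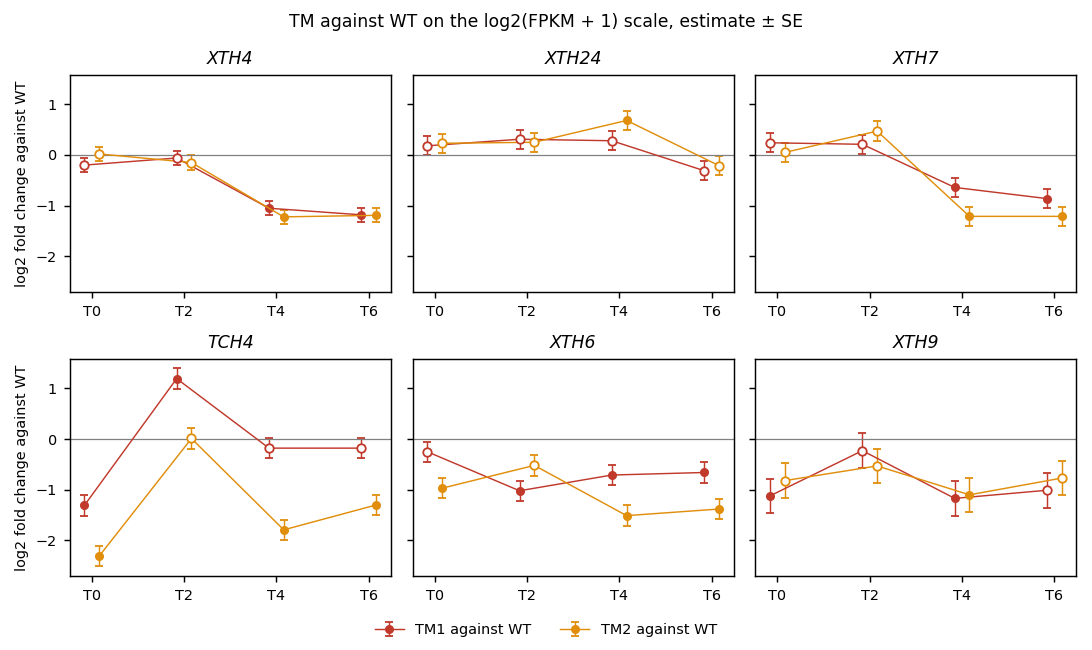
Log2 fold change of TM1 and TM2 against WT on the log2(FPKM + 1) scale (vertical axis) at the 4 times (horizontal axis) for the 6 most abundant XTH genes; bars are standard errors and filled points have an adjusted p under 0.05. XTH4 and XTH7 go below 0 at T4 and T6 in both isolates, whereas TCH4 is lowest at T0 and the isolates lie apart.

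XTH4, which is known as a gene of growing and vascular tissues, was past the threshold at T4 and T6. At T0 its level was 51.9, 48.6 and 45.5 FPKM in TM1 and 60.8, 64.1 and 46.7 FPKM in TM2, against 59.5, 55.8 and 52.4 FPKM in WT. At T4 it was 34.0, 48.1 and 39.3 FPKM in TM1 and 34.2, 40.6 and 31.9 FPKM in TM2, against 96.3, 74.3 and 82.4 FPKM in WT. At T6 it was 28.7, 26.4 and 24.3 FPKM in TM1 and 29.8, 21.3 and 28.3 FPKM in TM2, against 61.9, 58.9 and 62.5 FPKM in WT. The libraries of TM and WT overlapped at T0 and stood fully apart at T4 and T6.

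XTH4 was 1.05 ± 0.14 (SE) log2 units lower in TM1 than in WT at T4 (adjusted p = 1.3e-06), and 1.22 ± 0.14 units lower in TM2 (adjusted p = 3.7e-08). At T6 the log2 fold change was -1.18 in TM1 (adjusted p = 2.1e-07) and -1.19 in TM2 (adjusted p = 1.2e-07). The exact two-sided permutation test of 6 TM against 3 WT libraries gave p = 0.0119 at T4 and at T6, the smallest p that its 84 arrangements can give, and p = 0.524 at T0. Without the A libraries of all groups, the TM1 difference at T4 was -0.83, under the 2-fold limit, with an adjusted p of 0.00597.

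The courses of XTH4 separated after T2. In WT it was higher at T4 than at T2 (log2 fold change 0.37, adjusted p = 0.0449), whereas it was lower in TM1 (-0.61, adjusted p = 0.00126) and TM2 (-0.70, adjusted p = 4.3e-04, and 0.095 without the C libraries). The WT step kept an adjusted p under 0.05 in 7 of 12 alternatives. It was lost without the A or C libraries (0.356 and 0.137), with median ratio scaling (0.0544), without the trend in the variance (0.0679) and in a fit of T2 and T4 alone (0.0766). From T0 to T6, XTH4 fell by 0.86 log2 units in TM1 and by 1.09 in TM2, and the WT change was 0.13 (adjusted p = 0.513). The test of whether this change was unlike in TM and WT gave -1.10 ± 0.17 (SE) with an adjusted p of 3.2e-05. Over the means of 8 TM and 4 WT pools, with time as a term, XTH4 was 0.63 ± 0.17 log2 units lower in TM (adjusted p = 0.0318). Without the A libraries that adjusted p was 0.0702, and without the C libraries 0.0657.

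XTH7 shared this late difference, after a step up between T0 and T2. In TM1 and TM2 it averaged 31 ± 9.13 and 36.6 ± 4.23 FPKM at T2 (SD, n = 3 libraries each), against 26.2 ± 3.92 FPKM in WT. At T4 it was 21.4, 19.5 and 19.7 FPKM in TM1 and 11.3, 14.6 and 14.5 FPKM in TM2, against 25.3, 33.3 and 39.2 FPKM in WT. At T6 it was 8.8, 11.7 and 9.37 FPKM in TM1 and 6.41, 8.65 and 7.73 FPKM in TM2, against 20.5, 18.9 and 17.2 FPKM in WT. No TM library reached a WT library at either time.

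The step of XTH7 up to T2 was seen in every genotype, with log2 fold changes of 0.97 in TM1, 1.41 in TM2 and 1.00 in WT over T0 (adjusted p = 1.1e-04, 3.8e-07 and 1.0e-04). At T4, XTH7 was 0.64 log2 units lower in TM1 (adjusted p = 0.0189) and 1.21 lower in TM2 (adjusted p = 1.3e-05) than in WT, and at T6 0.86 and 1.21 units lower (adjusted p = 0.00251 and 2.0e-05). The TM1 estimates stayed under the 2-fold limit, and their adjusted p was 0.164 without the B and 0.24 without the C libraries at T4, and 0.0849 without the A libraries at T6. At T6 XTH7 stood below its T0 level in TM1 (-0.55, adjusted p = 0.0201) and TM2 (-0.72, adjusted p = 0.00287) and above it in WT (0.55, adjusted p = 0.0212). The TM1 change missed the threshold without the A or B libraries (adjusted p = 0.111 and 0.11), and the WT change without the B or C libraries (adjusted p = 0.075 and 0.231) and under median ratio or quantile scaling (0.0767 and 0.0908). Between T0 and T6 the TM difference shifted by -1.18 ± 0.23 (adjusted p = 7.5e-04), and over pools the TM difference was -0.37 with an adjusted p of 0.266.

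XTH6, whose protein is close to that of XTH7, was lower in the TMs through most of the course. WT held 14.3 to 20.5 FPKM in its 12 libraries. TM1 had 12.9, 17.8 and 9.24 FPKM at T0, 8.19, 7.93 and 8.66 FPKM at T2, 9.83, 9.3 and 7.85 FPKM at T4, and 11.5, 11.7 and 8.78 FPKM at T6. TM2 had 6.84, 12.2 and 4.8 FPKM at T0, 12, 10.9 and 13.6 FPKM at T2, 4.02, 5.07 and 5.08 FPKM at T4, and 5.97, 6.18 and 5.88 FPKM at T6. From T2 on all TM libraries were below all WT libraries.

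The XTH6 difference passed the test in both isolates at T4 (-0.71 in TM1, adjusted p = 0.015, and -1.51 in TM2, adjusted p = 7.9e-07) and at T6 (-0.66, adjusted p = 0.0398, and -1.38, adjusted p = 6.1e-06). The TM1 call at T4 was lost without the A or C libraries (adjusted p = 0.198 and 0.0899), and that at T6 without any one letter (adjusted p of 0.189, 0.132 and 0.201 without A, B and C). At T2 it passed in TM1 (-1.02, adjusted p = 2.4e-04) and not in TM2 (-0.52, adjusted p = 0.0619), and at T0 in TM2 (-0.97, adjusted p = 4.9e-04, and 0.104 in a fit of T0 alone) and not in TM1 (-0.25, adjusted p = 0.477). XTH6 was 0.88 ± 0.19 log2 units lower in the TM pools than in the WT pools (adjusted p = 0.014, and 0.0524 without the C libraries). No change from T0 to T6 passed the test in TM1, TM2 or WT (-0.26, -0.27 and 0.15).

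XTH9 is known for expression in shoot tips and young growing organs. At T4 it had 3.12, 1.25 and 1.82 FPKM in TM1 and 1.73, 2.65 and 2.08 FPKM in TM2, against 5.89, 7.47 and 4.13 FPKM in WT. The log2 fold change was -1.17 ± 0.34 in TM1 (adjusted p = 0.0188) and -1.10 ± 0.34 in TM2 (adjusted p = 0.024). It missed the test without the A libraries (adjusted p = 0.0859 in TM1 and 0.215 in TM2) and without the B libraries (0.281 and 0.135), and in TM2 with a pseudocount of 0.1 (0.0549). Without the B libraries XTH9 was also past the 2-fold threshold at T0 (-1.56 in TM1 and -1.40 in TM2). Over pools it was 0.84 ± 0.13 log2 units lower in TM (adjusted p = 0.00202), and the largest single value, 9.89 FPKM in WT library C at T0, stood beside 3.88 and 3.54 FPKM in the other two.

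TCH4 had a course unlike that of XTH4. At T0 it was 21.8, 17.7 and 21 FPKM in TM1 and 9.81, 10.2 and 8.65 FPKM in TM2, against 57.3, 49.8 and 47.2 FPKM in WT. At T2 it was 18.4, 13.9 and 11.8 FPKM in TM1 and 5.11, 7.41 and 5.12 FPKM in TM2, against 6.08, 6.53 and 4.79 FPKM in WT. WT thus held the highest of the 12 group means at T0 and the lowest at T2, and the libraries of WT and TM2 overlapped at T2.

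At T4 TCH4 was 32.2, 36.4 and 23.6 FPKM in TM1 and 12.7, 6.2 and 9.71 FPKM in TM2, against 32, 39.6 and 31.7 FPKM in WT. At T6 it was 17.7, 13.4 and 16.6 FPKM in TM1 and 8.94, 7.28 and 4.54 FPKM in TM2, against 19.2, 18.7 and 16.2 FPKM in WT. At both times TM1 overlapped WT, and all TM2 libraries lay below both.

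At T0 TCH4 was 1.31 ± 0.20 log2 units lower in TM1 (adjusted p = 2.2e-05) and 2.31 ± 0.20 units lower in TM2 (adjusted p = 2.5e-10) than in WT, which is 2.48-fold and 4.96-fold on the log2(FPKM + 1) scale. The exact permutation p was 0.0119. At T2 it was higher in TM1 than in WT (1.19, adjusted p = 3.4e-05), and the TM2 estimate was 0.01 ± 0.20 (adjusted p = 0.996). At T4 and T6 the TM1 difference was -0.18 at both times (adjusted p = 0.663 and 0.72), while TM2 was 1.79 and 1.30 log2 units lower (adjusted p = 3.6e-08 and 1.8e-05).

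The steps in time were steep in WT. TCH4 fell by 2.95 log2 units between T0 and T2 in WT (adjusted p = 1.8e-13) and rose by 2.38 units between T2 and T4 (adjusted p = 6.2e-11). In TM1 the same steps were -0.45 (adjusted p = 0.0842) and 1.01 (adjusted p = 3.0e-04), and in TM2 -0.63 (adjusted p = 0.0139) and 0.58 (adjusted p = 0.0498). The TM2 steps missed the threshold without the A libraries (adjusted p = 0.125 and 0.571) and without the C libraries (0.0734 and 0.291). The TM2 rise to T4 passed in 6 of 12 alternatives, and was also lost with a pseudocount of 5 (0.0736), without the trend in the variance (0.0663), in a fit of T2 and T4 alone (0.1) and with limma voom (0.0687). Whether these steps differed between genotypes was not tested for each pair of times. From T0 to T6 TCH4 fell by 1.46 units in WT (adjusted p = 5.1e-07), and the changes of -0.33 in TM1 and -0.45 in TM2 did not pass the test. Between T0 and T6 the TM difference shifted by 1.07 ± 0.25 (adjusted p = 0.00411), which was 0.94 with an adjusted p of 0.0989 without the A libraries. Over the 12 pools neither the TM difference of TCH4 (-0.73, adjusted p = 0.254) nor its change from T0 to T6 (-0.75, adjusted p = 0.128) passed the test. All plants were harvested within the same hours of the morning.

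The isolates differed from each other in TCH4 and XTH6. TCH4 was higher in TM1 than in TM2 by 1.00, 1.19, 1.61 and 1.13 log2 units at T0, T2, T4 and T6 (adjusted p = 0.0033, 6.4e-04, 1.1e-06 and 7.2e-04), and no TM2 library reached any TM1 library of its time. It was 1 of 9 XTH genes past the 2-fold threshold between isolates at each time, beside 0.401%, 0.278%, 1.09% and 0.545% of all genes. Past it were 2 of the 4 times without the A libraries, with 0.96 and 0.95 at T0 and T2, and 2 without the C libraries, with 0.91 and 0.86 at T0 and T6 (TCH4 adjusted p of 0.0612, 0.206, 0.104 and 0.139). XTH6 was higher in TM1 by 0.72, 0.80 and 0.73 log2 units at T0, T4 and T6 (adjusted p = 0.0406, 0.00982 and 0.0445), and at T2 the estimate was -0.50 (adjusted p = 0.398). These XTH6 calls were lost without the A libraries (adjusted p = 0.286, 0.314 and 0.474), and those at T0 and T6 also without B (0.072 and 0.152) or C (0.181 and 0.0952). The other 7 genes showed no difference between isolates that passed the test at any time. TM1 and TM2 came from different plants of the first generation after 1 cross, and each isolate was 1 pool per time.

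XTH24 was at its highest at T6 in all 3 genotypes. At T0 it had 19.5, 25.7 and 17.1 FPKM in TM1 and 23.9, 16 and 24.7 FPKM in TM2, against 22.4, 13.1 and 19.4 FPKM in WT. At T6 it had 79, 58.8 and 60.2 FPKM in TM1 and 49.1, 96 and 72.2 FPKM in TM2, against 77.3, 90.5 and 76.3 FPKM in WT. Every T6 library was above every T0 library, and TM and WT overlapped at both times.

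The change of XTH24 from T0 to T6 was 1.63 ± 0.19 log2 units in TM1 (adjusted p = 2.0e-08), 1.68 ± 0.19 in TM2 (adjusted p = 1.2e-08) and 2.12 ± 0.19 in WT (adjusted p = 6.8e-11). Over pools of the 3 genotypes it was 1.81 ± 0.15 (adjusted p = 1.1e-05). XTH24 rose by 0.79, 0.68 and 0.67 log2 units between T0 and T2 in TM1, TM2 and WT (adjusted p = 0.00124, 0.00468 and 0.00713). All 3 of these steps missed the threshold without the C libraries (adjusted p = 0.108, 0.0674 and 0.0976), the WT step also without the B libraries (0.0854), and the TM2 and WT steps under median ratio scaling (0.0653 and 0.0536). Between T2 and T4 the estimates were -0.50, -0.04 and -0.47 (adjusted p = 0.0647, 0.932 and 0.0637). Between T4 and T6 it rose by 1.34, 1.04 and 1.93 log2 units (adjusted p = 3.5e-06, 2.1e-04 and 1.5e-08), and the TM2 step had an adjusted p of 0.0667 without the C libraries. At T2 all 6 TM libraries were above the 3 WT libraries (31.4 to 38.1 FPKM against 26.1 to 31.2 FPKM, exact permutation p = 0.0119), and the limma estimates of 0.31 in TM1 and 0.25 in TM2 did not pass the adjusted threshold. In TM2 at T4 XTH24 was higher than in WT (0.68, adjusted p = 0.0105), with an adjusted p of 0.0701 without the B and 0.117 without the C libraries.

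The 9 genes were also compared between T6 and T0 in each genotype, with an adjusted p under 0.05 and a change of at least 2-fold. In TM1 only XTH24 passed, in TM2 XTH4 (lower) and XTH24 (higher), and in WT XTH15 and TCH4 (lower) and XTH24 (higher). These are 1, 2 and 3 of 9 genes, beside 11.2%, 10.8% and 11.0% of all genes. Without the B libraries the count was 3 in TM1, with XTH8 and XTH17 lower as well, and 1 in TM2, where XTH4 had -0.85. The shift in the TM difference between T0 and T6, called at an adjusted p under 0.05 with no fold limit, passed for XTH4, XTH7 and TCH4, 3 of 9 genes beside 8.78% of all genes. For XTH24 that estimate was -0.47 ± 0.23 with an adjusted p of 0.234.

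Over pools, 4 of 9 XTH genes were lower in TM than in WT (XTH4, XTH6, XTH8 and XTH9), beside 12.7% of all genes in either direction and 4.73% lower. Between T6 and T0 pools, XTH8, XTH9, XTH15 and XTH17 fell by 0.86, 0.62, 0.61 and 0.72 log2 units (adjusted p = 0.00275, 0.0176, 0.0305 and 0.00143) and XTH24 rose. That is 5 of 9 genes, beside 38.4% of all genes. The 3 lowest of these genes had few reads, and the count was 2 without the B and 3 without the C libraries, and 2 when genes with a mean under 1 FPKM were left out of the fit.

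The genes of low abundance were XTH8, XTH15, known as a shade-responsive gene, and XTH17, known mainly from the root. XTH15 at T0 had 7, 2 and 3 reads in TM1 and 0, 2 and 3 reads in TM2, against 11, 6 and 12 reads in WT. Its log2 fold change was -0.83 in TM1 (adjusted p = 0.0238) and -1.07 in TM2 (adjusted p = 0.0017), and the TM1 call was kept in 5 of 11 alternatives. It was lost when the A, B or C libraries were left out (adjusted p = 0.0604, 0.079 and 0.181), with a pseudocount of 0.1 (0.212), in a fit of T0 alone (0.106) and with limma voom (0.108), and the TM2 call without the A libraries (0.0675). Only 1 TM library reached the lowest WT library in reads, and none reached it in FPKM.

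XTH8 at T6 had 0, 1 and 0 reads in TM1 and 0, 0 and 1 reads in TM2, against 2, 4 and 6 reads in WT. XTH8 was 0.55 ± 0.12 log2 units lower in the TM pools than in the WT pools (adjusted p = 0.0156, and 0.0809 without the C libraries). XTH17 at T6 had 0 reads in all 6 TM libraries, against 2, 3 and 1 reads in WT, and no fold is given because both sides are at or under 3 reads. The limma estimate of XTH17 was -0.25 in both isolates (adjusted p = 0.694 and 0.619). It passed in both isolates in 1 of 11 alternatives, a fit of T6 alone (adjusted p = 0.041 and 0.0278), and the exact permutation p of its FPKM values was 0.0119.

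Summed over the 9 genes, XTH transcript stood lower in the TMs at T0, T4 and T6. The sum at T0 was 122 ± 10.9 FPKM in TM1 and 114 ± 9.64 FPKM in TM2, against 164 ± 12.5 FPKM in WT (SD, n = 3 libraries each). At T4 it was 128 ± 12.4 FPKM in TM1 and 99.5 ± 7.38 FPKM in TM2, against 196 ± 6.01 FPKM in WT, and at T6 130 ± 15.8 FPKM in TM1 and 121 ± 20 FPKM in TM2, against 200 ± 10.4 FPKM in WT. The TM and WT libraries did not overlap at these times. At T2 they did, with 157 ± 17.1 and 153 ± 15.4 FPKM in TM1 and TM2 against 150 ± 8.41 FPKM in WT.

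The make-up of the sum differed between times. TCH4 held 16.5% of it in TM1 and 8.38% in TM2 at T0, against 31.3% in WT. XTH4 held 20.3% in TM1 and 21.9% in TM2 at T6, against 30.5% in WT, and XTH24 then held 50.6% in TM1 and 60% in TM2, against 40.6% in WT. The sum follows the 5 most abundant genes, since XTH8, XTH9, XTH15 and XTH17 together are a small part of it.

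**Figure D3:**
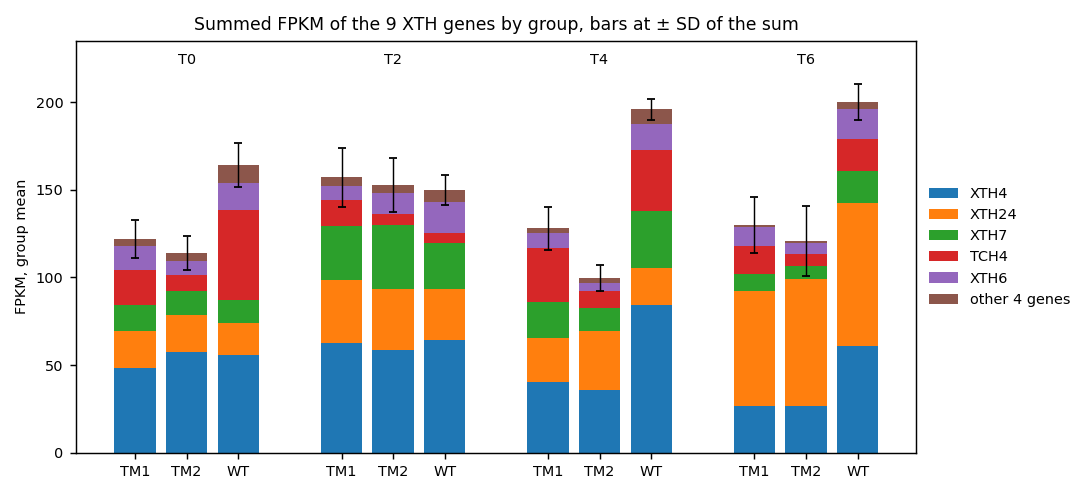
Stacked bars of the group mean FPKM of the XTH genes (vertical axis, from 0) for TM1, TM2 and WT at each time (horizontal axis), with the SD of the summed FPKM over 3 libraries. The WT sum stands above both TM sums at T0, T4 and T6 and close to them at T2, and the XTH24 segment is largest at T6.

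Counting libraries rather than fitting a model gave the most XTH genes at T6, whereas the model gave the most at T4. The highest of the 6 TM libraries was under the lowest of the 3 WT libraries for 2 XTH genes at T0, 1 at T2, 5 at T4 (XTH4, XTH6, XTH7, XTH9 and XTH15) and 6 at T6 (XTH4, XTH6, XTH7, XTH8, XTH9 and XTH17). Over all genes the share was 4.98%, 10.0%, 8.73% and 6.78%. XTH4, XTH6, XTH7 and XTH9 were counted at both T4 and T6. XTH15 at T4 had 0 to 2 reads in TM libraries against 3 to 12 in WT. At T6 XTH8 had 0 or 1 reads against 2 to 6, and XTH17 had 0 against 1 to 3. The higher count at T6 thus rests on genes with few reads. The opposite, 6 TM libraries above the WT libraries, held for XTH24 at T2 alone, beside 17.8% of all genes at that time. Of the 36 exact permutation tests, 12 gave p = 0.0119, the smallest possible, and 20 gave a p under 0.05, unadjusted. These tests were run on the XTH genes alone, so the 2 counts have no share over all genes beside them. They also treat libraries of the same pool as separate units. In the order of the 12 group means of XTH4, the WT group at T4 (84.4 FPKM) was set apart at the top and both TM groups at T6 (26.5 and 26.4 FPKM) at the bottom, whereas 8 of 11 neighbours overlapped. For TCH4, WT at T0 (51.4 FPKM) was set apart, and again 8 of 11 neighbours overlapped.

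Of the 23 other XTH genes, 12 had a row in the table. Their estimates averaged over both isolates were below 0 for 7, 5, 10 and 9 of 12 at T0, T2, T4 and T6. Over all genes the share below 0 was 45.2%, 40.4%, 49% and 39.6%. XTH27 and XTH28 were the most abundant, with group means of 31.7 to 65.9 and 24.7 to 38.2 FPKM. XTH27 had 32, 43.8 and 33.9 FPKM in TM1 and 31.4, 41.9 and 41.6 FPKM in TM2 at T4, against 51.1, 48.1 and 46.5 FPKM in WT, and all 6 TM libraries were below WT at T6 as well. Its log2 fold change at T4 was -0.41 in TM1 (adjusted p = 0.0288) and -0.35 in TM2 (adjusted p = 0.0627), whereas at T0 it was 0.33 (adjusted p = 0.0928) and 0.74 (adjusted p = 5.5e-05). XTH16 was past the 2-fold threshold at T0 in both isolates, with 4.06, 1.85 and 2.66 FPKM in TM1 and 2.07, 3.59 and 2.11 FPKM in TM2, against 8.89, 8.98 and 6.45 FPKM in WT (log2 fold change -1.27 and -1.36, adjusted p = 3.5e-04 and 6.6e-05). It was lower in every TM library, as TCH4 was at that time. Over pools XTH16 (-0.55, adjusted p = 0.0464) and XTH32 (-0.38, adjusted p = 0.0336) were lower in TM, 2 of 12 genes beside 4.73% of all genes.

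Without the fold limit XTH33, a member with a predicted membrane anchor, was lower at T2 (TM1 -0.66, TM2 -0.92, adjusted p = 0.0338 and 0.00373) and at T4 (-0.77 and -1.18, adjusted p = 0.0229 and 2.9e-04), on 14 reads or fewer per library. XTH19 was higher at T6 (TM1 1.20, TM2 0.87, adjusted p = 9.7e-04 and 0.0128), with 16, 22 and 13 reads in TM1 and 17, 7 and 16 reads in TM2, against 5, 3 and 4 reads in WT. XTH19 is the gene with which XTH17 shares its longest run of bases. The median log2 fold change of the 12 genes was -0.18, 0.15, -0.34 and -0.22 at T0, T2, T4 and T6. XTH5, XTH10, XTH18, XTH25, XTH27, XTH28, XTH30, XTH31 and XTH32 did not pass the test in both isolates at any time.

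**Figure D4:**
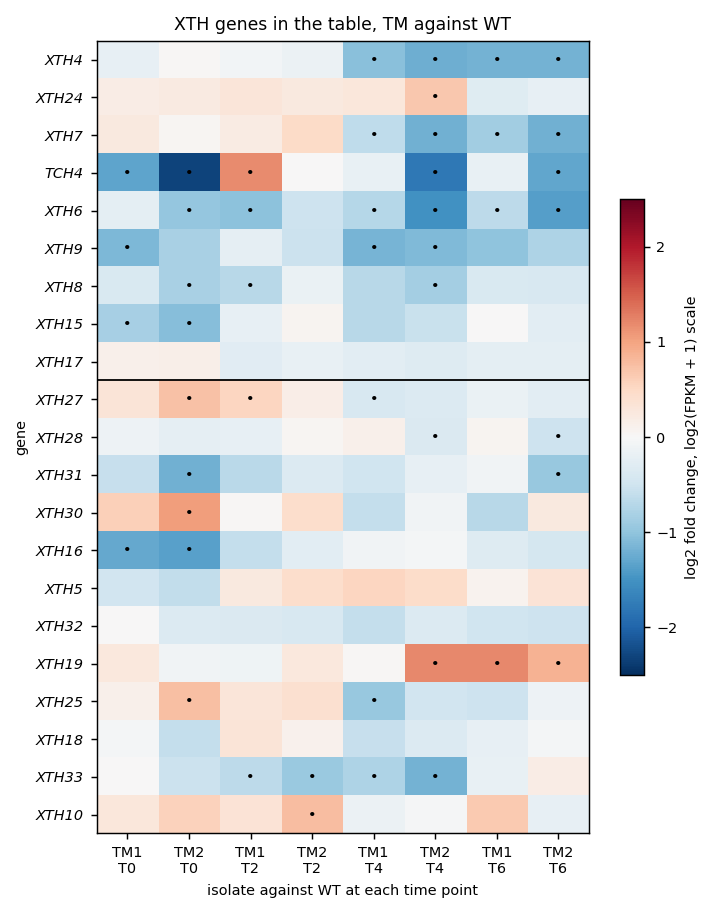
Log2 fold change on the log2(FPKM + 1) scale (colour) of TM1 and TM2 against WT at each time (columns) for the 9 XTH genes of the list, above the line, and the 12 others, below it, by falling mean FPKM. Dots mark an adjusted p under 0.05 in that isolate; XTH4 and XTH7 are blue with dots at T4 and T6 only, and XTH19 is red with dots in both isolates at T6.

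The list of genes that make and trim the substrate held none past the 2-fold threshold. Of 17 genes for xyloglucan synthesis and trimming, 16 had a row. Without the fold limit 4, 2, 3 and 3 of them were lower in both isolates at T0, T2, T4 and T6, beside 3.03%, 6.44%, 4.16% and 2.40% of all genes, and none was higher. CSLC4, the main glucan synthase of xyloglucan, was among the lower genes at all 4 times, CSLC5 at T0, T4 and T6, and the xylosidase XYL1 at T4 and T6 (named after their values were seen). The list's median was -0.04, -0.08, -0.28 and -0.13 on the log2 scale, beside 0.04, 0.09, 0.00 and 0.07 over all genes.

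Brassinosteroid and touch genes were looked at because TCH4 is known to respond to both. Of 18 genes for brassinosteroid synthesis and response, 17 had a row, and only BEE1, a transcription factor gene known to be induced early by brassinosteroid, passed the 2-fold threshold. It was lower at T2 (TM1 -1.35, TM2 -1.28, adjusted p = 0.00422 and 0.00748), when TCH4 was not lower. Without the fold limit 2, 4, 2 and 0 genes of this list were higher at T0, T2, T4 and T6, beside 6.84%, 11.3%, 4.10% and 2.68% of all genes, and 1, 1, 3 and 1 were lower, beside 3.03%, 6.44%, 4.16% and 2.40%.

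Of 6 other touch-response genes, all in the table, 0 passed the limma test in both isolates at T0, T2 or T4, and 2 were higher at T6 without the fold limit (CAM2 and WRKY40), beside 2.68% of all genes. With an unadjusted p under 0.05 in both isolates, CAM2 and ZAT12 were above WT at T0 and WRKY40 at T2. By the same rule WRKY40 was below WT at T0, and ZAT12 at T4. The touch list's median was -0.01, 0.30, 0.32 and 0.21, beside 0.04, 0.09, 0.00 and 0.07 over all genes. Single isolates and steps in time showed more. WRKY40, a transcription factor gene, was lower in TM2 than in WT at T0 (log2 fold change -1.10, adjusted p = 4.7e-07), and the TM1 estimate was -0.33 (adjusted p = 0.128). Between T0 and T2 in WT, where TCH4 fell, WRKY40 fell by 2.12 and the calmodulin-like gene CML12 by 1.57 log2 units (adjusted p = 9.0e-14 and 4.8e-15). In that step CAM2, CML24, ZAT10 and ZAT12 were at -0.15, 0.01, -0.53 and 0.15 (adjusted p = 0.574, 0.953, 0.188 and 0.74). Between T2 and T4 in WT WRKY40 rose by 2.31 and CML12 by 1.38 units (adjusted p = 2.6e-14 and 2.6e-13). ZAT10 then rose by 2.63 and ZAT12 by 1.07 units (adjusted p = 2.5e-08 and 0.00414), and CAM2 and CML24 were at 0.44 and 0.12 (0.072 and 0.408). In TM1 CML12 changed by -1.87 and 2.46 and WRKY40 by -1.44 and 2.84 over the same steps (adjusted p = 4.5e-17, 1.1e-19, 6.0e-10 and 8.4e-17). In TM2 CML12 changed by -1.16 and 1.37 (adjusted p = 6.9e-12 and 2.7e-12) and WRKY40 by 0.12 and 1.34 (0.551 and 2.3e-08). Between the isolates, CML12 was higher in TM1 than in TM2 at T0 (0.38, adjusted p = 0.0172) and T4 (0.76, adjusted p = 7.4e-07). WRKY40 was higher in TM1 at T0 (0.77, adjusted p = 0.00124) and T4 (0.72, adjusted p = 8.9e-04) and lower at T2 (-0.79, adjusted p = 0.00106), when TCH4 was higher in TM1. CML24 was higher in TM1 at T0 (0.60, adjusted p = 1.4e-04) and T4 (0.52, adjusted p = 2.5e-04). CAM2, ZAT10 and ZAT12 did not pass between the isolates at any time. These touch genes were named after their values were seen, and TCH4 was not tested against them.

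Marker genes of cell types moved too. KNOLLE and CDKB2;1, known from dividing cells, were the 2 of 6 meristem and division markers in the table. Their summed level was 7.12 to 9.56 FPKM in TM libraries at T4 and 5 to 8.25 FPKM at T6, against 17.7 to 18.2 FPKM and 8.62 to 11.2 FPKM in WT, the times at which XTH4 and XTH7 were lower. KNOLLE alone passed the test, at T4 (TM1 -0.99, TM2 -1.07, adjusted p = 4.3e-05 and 9.1e-06) and at T6 (-0.61 and -0.79, adjusted p = 0.0173 and 9.3e-04). The CDKB2;1 estimates were -0.39 and -0.58 at T4 (adjusted p = 0.469 and 0.206) and 0.22 and -0.14 at T6 (adjusted p = 0.771 and 0.826). At T0 the sums overlapped, with 14.8 to 27.3 FPKM in TM and 14.3 to 20.9 FPKM in WT. The 5 mesophyll markers summed to 4334 to 4974 FPKM in TM libraries at T4, against 5262 to 5431 FPKM in WT, where CA1 alone was lower in both isolates. The 6 vascular markers summed to 129 to 172 FPKM in TM libraries at T6, against 97.1 to 108 FPKM in WT, and SWEET11, a sucrose transporter gene, alone was higher in both isolates (0.57 and 0.88, adjusted p = 0.00112 and 1.2e-06). Other vascular estimates at T6 went both ways. In TM1 and TM2, SWEET12 was at 0.63 and 0.78 (adjusted p = 0.0736 and 0.012) and SUC2 at 0.36 and 0.45 (0.145 and 0.0386). IRX3 was at 0.23 and 0.11 (adjusted p = 0.677 and 0.832), XCP1 at -0.49 and -0.54 (0.142 and 0.0652) and APL at -0.08 and 0.09. Beside the lower TCH4 at T0, the 5 epidermis markers summed to 152 to 255 FPKM in TM libraries, against 95.6 to 115 FPKM in WT. CER6, a wax synthesis gene, was the 1 of 5 that passed the test as higher in both isolates. ATML1 was at 0.32 in TM1 (adjusted p = 0.121) and 0.53 in TM2 (adjusted p = 0.00396). In TM1 and TM2, FAMA was at 0.18 and 0.18 (adjusted p = 0.331 and 0.259) and MYB60 at -0.15 and 0.07 (0.653 and 0.827). GL2 was at -0.13 and -0.07 (adjusted p = 0.75 and 0.872), so the higher sum does not hold for each epidermis marker. The part of these markers in the XTH results was not tested.

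Genes with the most similar course were listed by the Pearson correlation of the 12 group means among 11209 genes with a mean of at least 5 FPKM. For TCH4 they were ARR9 (r = 0.899), a cytokinin response regulator gene, DREB26 (r = 0.898), a transcription factor gene of the AP2/ERF family, and AT2G39870 (r = 0.897). For XTH4 they were SKS6 (r = 0.944), HA11 (r = 0.942), which encodes a plasma membrane proton pump, and AT2G14900 (r = 0.938). HA11 averaged 17.5 and 14.8 FPKM in TM1 and TM2 at T4, against 38.7 FPKM in WT. Among the 36 pairs of the 9 XTH genes r ran between -0.728 (XTH8 with XTH24) and 0.882 (XTH4 with XTH9). These are descriptions over 12 pools that share genotypes and times, with the likest genes picked for their high r.

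**Figure D5:**
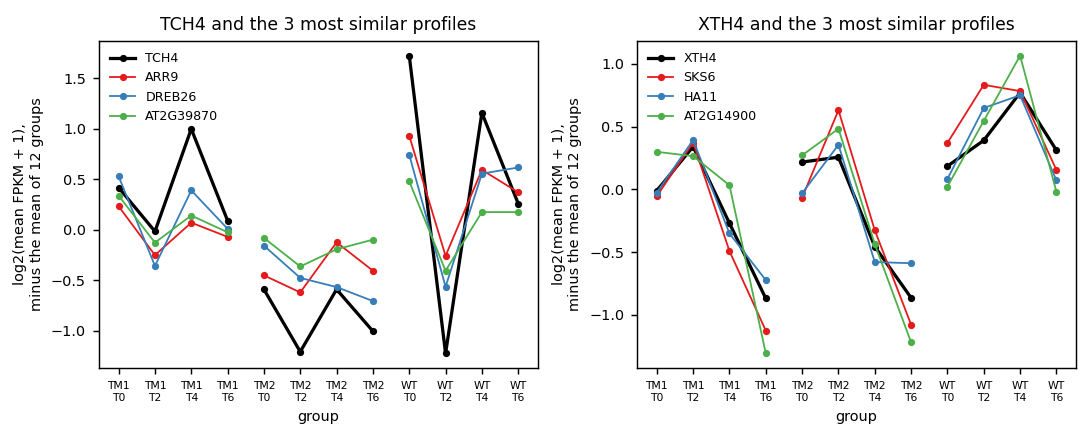
Group means as log2(mean FPKM + 1) minus the mean of the 12 groups (vertical axes) for TCH4 with its 3 likest genes and XTH4 with its 3 likest genes, in TM1, TM2 and WT over time (horizontal axes). TCH4 drops at T2 and returns at T4 in WT most steeply, and XTH4 with its likest genes is lowest at T6 in TM1 and TM2.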

How the data were processed

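RNA-seq was carried out on leaf 6 of TM1, TM2 and WT plants at 4 times, with 36 directional 3′ libraries made by the BrAD-seq method. The authors used Rsubread for alignment to TAIR10, NOISeq for FPKM and HTSFilter against low genes, and the deposited table held FPKM for 19437 genes; versions are not given in the sources used here. FPKM divides by gene length although 3′ libraries read mostly one end, so levels of different genes are compared only roughly. Per the methods of the study each group was 1 pool divided into 3 libraries, which gives the technical spread only.

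The test scale was log2(FPKM + 1), fitted in limma 3.58.1 under R 4.3.3 (1 mean per group, trended eBayes, Benjamini-Hochberg adjustment over 19437 genes). A fold change on this scale understates that of low genes. TM against WT was called at an adjusted p under 0.05 and at least 2-fold in both isolates, and other comparisons as given beside them. A second fit used the 12 pool means. Exact two-sided permutation tests used SciPy 1.17.1 (84 arrangements of 6 and 3 libraries, smallest p 0.0119). The script was tested on simulated data.

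Whole reads were recovered from the FPKM steps for 19088 genes (within 0.05 reads), which gave depths of 4407618 to 11714474 reads per library. Counting error alone is covered by statements on reads, and 3 reads or fewer were read as the floor. Alternatives were the pseudocount (0.1 and 5), a minimum mean of 1 FPKM, median ratio and quantile scaling, untrended eBayes, a fit of the compared times alone, limma voom on recovered reads, a replicate block and leaving out the A, B or C libraries.

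The XTH genes and the other lists were chosen with earlier results of these data known. Named were the 10 XTH genes, all other XTH genes in the table, list genes past the 2-fold threshold and, for TCH4 and XTH4, the 3 genes of most similar course. Gene positions and sequences came from RefSeq TAIR10.1 by locus identifier, which matched for all 33 XTH genes, and protein identity was computed with Biopython 1.88. Protein and upstream sequences, though planned, are not shown here.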

Additional observations from a re-analysis of the deposited data

Results flagged for a closer look

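The change of the TM difference between T0 and T6 was itself tested and passed for 3 genes. It was -1.10 log2 units for XTH4 and -1.18 for XTH7, for which TM moved below WT with time, and 1.07 for TCH4, for which TM was furthest below WT at T0.

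The isolates differed by a direct test for 2 genes. TCH4 was higher in TM1 than in TM2 at all 4 times, by 1.00 (T0), 1.19 (T2), 1.61 (T4) and 1.13 (T6) log2 units. XTH6 was higher in TM1 by 0.72 at T0, 0.80 at T4 and 0.73 at T6. Each isolate was 1 pool per time, so that isolate and pool cannot be told apart.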

How the results depend on the processing

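Of 1416 alternative values for 126 single results, 1334 kept their direction and their side of the threshold, 56 lost the call, 26 gained it and 0 reversed. XTH4 kept an adjusted p under 0.05 in both isolates at T4 and T6 under the 12 alternatives run for each. XTH6 in TM1 kept it in 10 of 12 at T4 and 8 of 12 at T6, and XTH7 in TM1 in 10 of 12 and 11 of 12.

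Counts of the 9 XTH genes past the threshold moved as follows (between isolates, TCH4 was the gene counted, once for each of the 4 times). TM against WT at T0 gave 1, and 2 with limma voom or with no fold limit. At T4 it gave 2, against 1 with a pseudocount of 0.1, 0 with a pseudocount of 5 and 4 with no fold limit. At T6 it gave 1, and 3 with no fold limit. T6 against T0 in TM1 gave 1, against 2 with quantile normalization or with median ratio scaling, and 3 with limma voom or with a pseudocount of 0.1. In TM2 it gave 2, against 4 with a pseudocount of 0.1, 1 with a pseudocount of 5 and 4 with limma voom. TM1 against TM2, TCH4 passed at 4 of the 4 times, and at 1 with a pseudocount of 5. T6 pools against T0 pools gave 5, and 2 with a minimum mean of 1 FPKM. Beyond the fold limit and the gene filter, which change the rule itself, the cause was not tested.

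Leaving out the A, B or C libraries of all groups gave 1 to 2 genes at T0, 0 to 2 at T4 and 1 to 1 at T6. For T6 against T0 it gave 1 to 3 in TM1, 1 to 3 in TM2 and 2 to 4 in WT. TCH4 then passed between TM1 and TM2 at 2 to 4 of the 4 times. The counts were 2 to 4 for the change of the TM difference, 2 to 4 for TM against WT pools and 2 to 5 for T6 against T0 pools.

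The replicate letters did not pair the libraries: of 24 pairs, 3 had deviations correlated above 0.1 (range -0.15 to 0.18). A replicate block left all 9 counts it could be fitted to equal. The median of all genes lay at 0.10 to 0.13 log2 units for T6 against T0, and at -0.01 to 0.01 under median ratio or quantile scaling. Depth limits XTH8, XTH15 and XTH17, which had 3 reads or fewer in 15, 26 and 29 of 36 libraries.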
